A study of Mus musculus with 3 samples.

Results

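Stab2, Oit3, Clec4g, Dnase1l3, Gpr182 and Maf were followed in every cell of 3 embryo sections that held at least 10 counts of panel genes. They are 6 of the 296 panel genes with counts in the deposited tables, and were chosen by name: the first 5 as genes of the scavenger programme of the liver sinusoid, and Maf as a transcription factor. RNA molecules were counted in place by MERFISH, which reads each molecule through a barcode built up over rounds of fluorescence imaging, on sections of wild-type mouse embryos, with whole embryo given as the tissue. The E9.5 group was 2 sections from different embryos and the E15.5 group was 1 section, so that any value at E15.5 rests on a single embryo. All groups shared the wild-type genotype, the imaging platform and a designed panel of 300 genes, and no treatment was given in the labels. The title of the series names endothelial heterogeneity of the embryo as its subject.

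Liver sinusoids are wide, leaky capillaries whose endothelial cells clear waste macromolecules from the blood through scavenger receptors, and in the fetal liver they run between nests of cells that form red blood cells. Stab2 is such a receptor, with hyaluronan among its ligands. Gpr182 is an atypical chemokine receptor of endothelium, and Clec4g is a C-type lectin known from sinusoidal endothelium. Oit3 and Dnase1l3 are secreted, the first a protein with a zona pellucida domain and the second a nuclease that degrades DNA in chromatin. Maf is a basic leucine zipper factor known from macrophages and from sinusoidal endothelium.

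The promoters of Stab2 and Clec4g are shown because, of the 6 genes, these 2 have a window in the table used, and because they differed by position at E15.5: Stab2 was concentrated in 1 area and Clec4g was not raised there. Both are the RefSeq sequences of the GRCm38.p6 build, 300 bases long, from 250 bases before the annotated start to 50 bases after it, on the minus strand, at chr10:87007893-87008192 for Stab2 and at chr8:3720602-3720901 for Clec4g. No base is in capitals because neither of the motifs searched was found.
Stab2: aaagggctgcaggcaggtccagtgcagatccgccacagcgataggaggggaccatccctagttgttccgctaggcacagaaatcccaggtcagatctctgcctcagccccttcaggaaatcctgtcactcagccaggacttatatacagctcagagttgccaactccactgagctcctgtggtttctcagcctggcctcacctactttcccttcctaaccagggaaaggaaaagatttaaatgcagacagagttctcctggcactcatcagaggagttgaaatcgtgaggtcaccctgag
Clec4g: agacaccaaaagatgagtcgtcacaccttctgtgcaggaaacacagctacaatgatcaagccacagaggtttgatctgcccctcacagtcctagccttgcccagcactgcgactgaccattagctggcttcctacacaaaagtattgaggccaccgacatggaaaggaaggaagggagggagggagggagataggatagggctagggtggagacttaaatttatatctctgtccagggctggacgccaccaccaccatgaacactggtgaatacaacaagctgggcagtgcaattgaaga
The first motif was GATAA with its reverse complement TTATC, 1 form of the core bound by GATA factors. The second was TGCTGA with its reverse complement TCAGCA, a part of the Maf recognition element. They do not overlap each other in letters. Other forms of the GATA core, such as GATAG, were not searched for. GATAA was present in 25.4% and TGCTGA in 19.5% of 32851 windows of this length, both strands read. The absence of a match says only that these letters are not in these windows. GC content was 53% for Stab2 and 51% for Clec4g, against a median of 52.7% over all windows. Windows were found for 2 of the 6 genes, and Oit3, Dnase1l3, Gpr182 and Maf had none in the table used.

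Kept cells numbered 830 of 1077 (77.1%) and 6334 of 6835 (92.7%) in E9.5 sections 1 and 2, and 195915 of 219525 (89.2%) at E15.5, with a median of 61, 128 and 84 counts per cell. E9.5 section 1 covered a small arc of tissue, 966 by 377 position units, against 1786 by 1614 for section 2 and 6050 by 8691 at E15.5, and the header gives no unit for position. Background came from 19 blank codes, barcodes given to no gene, whose mean level was 2.39, 1.49 and 1.59 counts per 10,000 gene counts in the 3 sections and whose highest level was 6.85, 3.80 and 4.49. In E9.5 sections 1 and 2, 440 (53.0%) and 2850 (45%) of the kept cells lay among neighbours with fewer than 100 counts of Gnas per 10,000, a gene of broad expression. Most values below are such levels in counts per 10,000 gene counts, which compare a gene with itself or with the blank codes and not with another gene, because probes differ in efficiency.

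Over whole sections, Oit3 was the scavenger gene that stood above every blank code at E9.5, and Maf was the gene that did so at E15.5. Oit3 held 87 counts in E9.5 section 1, 594 in E9.5 section 2 and 4658 at E15.5, that is 12.7, 5.74 and 2.19 counts per 10,000. Both E9.5 sections lay above the E15.5 section, and the excess over the mean blank code was 5.30-fold and 3.85-fold at E9.5 and 1.38-fold at E15.5. Oit3 was counted in 8.92% (95% Clopper-Pearson interval 7.07 to 11.1), 8.11% (7.45 to 8.81) and 2.27% (2.20 to 2.33) of kept cells; intervals here and below cover counting error only.

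Maf ran the other way, with 18, 408 and 47781 counts and levels of 2.62, 3.94 and 22.5 counts per 10,000. The E15.5 section lay above both E9.5 sections. Maf was 1.10, 2.64 and 14.1 times the mean blank code, and 14.7% of the E15.5 cells held it. It also reached many molecules per cell there, with 4363 cells holding at least 3 counts, where the blank codes had a median of 1 such cell and a maximum of 104.

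The receptor Gpr182 kept a similar level in all sections, at 3.94, 4.15 and 3.28 counts per 10,000 from 27, 429 and 6968 counts. It exceeded every blank code in E9.5 section 2 alone, and 5 codes and 1 code lay above it in E9.5 section 1 and at E15.5. Stab2 lay near the mean blank code when whole sections were summed, at 2.19, 1.54 and 2.18 counts per 10,000, which is 0.913, 1.03 and 1.37 times that mean. Its E15.5 cells were nevertheless uneven: 275 cells held at least 3 counts and the richest held 20, against at most 13 in any cell for a blank code.

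At E9.5, Clec4g and Dnase1l3 did not reach the level of an average blank code in either embryo. Clec4g had 7, 58 and 5469 counts and 0.426, 0.376 and 1.62 times the mean blank code. Dnase1l3 had 10, 82 and 5930 counts and 0.609, 0.531 and 1.75 times that mean. Few cells held several molecules of either gene at E15.5, with 4 cells at 3 or more counts for Clec4g and 5 for Dnase1l3, within the range of the blank codes. In cells with neuron markers outside the erythroid-gene area described below (43475 cells, median 93 counts), a class in which sinusoid genes are not known, 2.29% held Clec4g and 2.73% held Dnase1l3, against 0.637% for Stab2, 0.856% for Oit3, 1.80% for Gpr182 and a mean of 1.45% for a blank code.

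Counted over members, 3 of 6 were above the mean blank code in E9.5 section 1, 4 of 6 in section 2 and 6 of 6 at E15.5, where 86.1%, 92.6% and 93.9% of the 296 genes were. Against the highest blank code the counts were 1, 3 and 1 of 6, where 176, 225 and 216 of the 296 genes were above it. The section-wide level of these genes is therefore close to the miscall background in many of these cases, and position and neighbouring markers carry most of what follows.

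**Figure D1:**
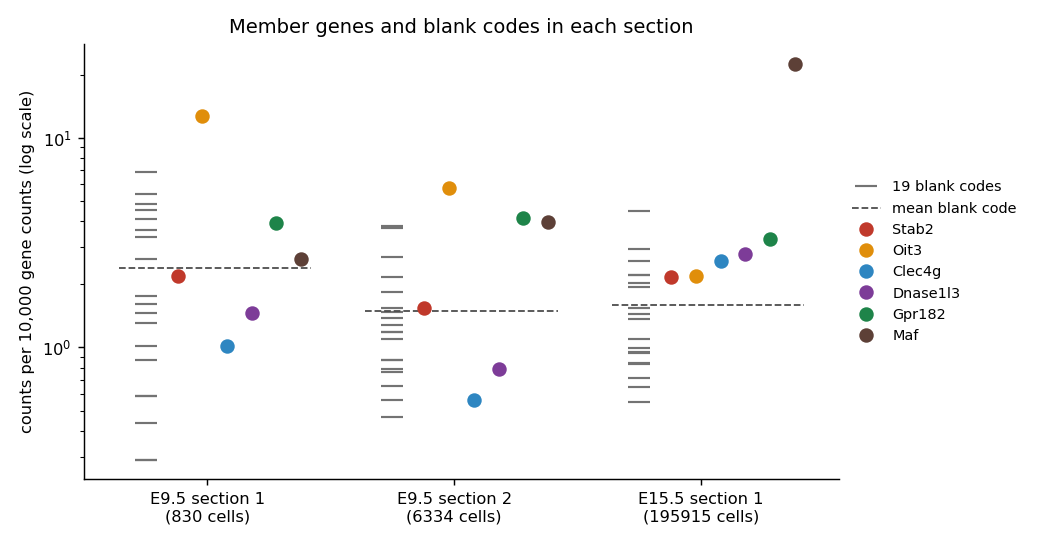
Counts per 10,000 gene counts (log scale) of the 6 genes (coloured points) and of each of the 19 blank codes (grey marks, dashed line at their mean) in the 3 sections. Oit3 lies above all blank codes in both E9.5 sections and Maf lies far above them at E15.5, at 22.5, while Clec4g and Dnase1l3 lie under the dashed line at E9.5.

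Between the stages, Clec4g and Maf were higher at E15.5 and no member was called lower by edgeR's quasi-likelihood test on section sums with Benjamini-Hochberg adjustment. Mean levels at E9.5 were 0.791 ± 0.325 counts per 10,000 (SD, n = 2) for Clec4g and 3.28 ± 0.932 (SD, n = 2) for Maf. The log2 change from E9.5 to E15.5 was 1.87 ± 0.66 (SE) for Clec4g, with an edgeR adjusted p of 0.0389, and 2.76 ± 0.99 for Maf, with an edgeR adjusted p of 0.0430. The test called 28 of 296 genes higher, 9.46%, and 16 lower, 5.41%, and the members' counts of 2 and 0 of 6 read against those shares. Neither call was firm: for Clec4g, whose E9.5 levels were both under the mean blank code, the edgeR adjusted p was 0.294 with upper-quartile scaling, and for Maf it was 0.0617 after the mean blank code was subtracted.

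The other members did not pass. Oit3 had a mean of 9.21 ± 4.91 counts per 10,000 (SD, n = 2) at E9.5 and a log2 change of -2.03 ± 1.15 (edgeR adjusted p = 0.274), while DESeq2 gave -1.98 with an adjusted p of 0.0207. Stab2, at 1.86 ± 0.460, had a log2 change of 0.28 ± 0.74 (edgeR adjusted p = 0.869), and Gpr182, at 4.04 ± 0.147, had -0.29 ± 0.95 (edgeR adjusted p = 0.886). Dnase1l3, at 1.13 ± 0.471, had 1.45 ± 0.70 (edgeR adjusted p = 0.176). Among the 5 other sinusoidal genes of the panel, the endocytic receptors Mrc1, Lyve1 and Cd36 with Gata4 and Ehd3, 0 were called higher and 1 lower; in the macrophage list 1 of 6 was called higher and in the lymphatic list 0 of 6 in either direction. The spread came from the 2 E9.5 sections alone. A whole-section sum cannot tell fewer cells of a type from less RNA per cell.

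Within both E9.5 sections Oit3 had the highest ratio of the 6 genes between the low-Gnas surroundings and the other cells. In those cells Oit3 stood at 25.7 counts per 10,000 in section 1 and 10.9 in section 2, against 3.49 and 2.66 in the other cells, so that it was 7.37-fold and 4.10-fold higher there in the 2 embryos. The mean blank code was 1.45-fold and 1.51-fold higher in those cells, whose median was 55 and 111.5 counts against 73.5 and 143. C1qa, a complement gene of macrophages, was 7.96-fold and 5.32-fold higher there and the mural marker Higd1b 7.94-fold and 8.67-fold; their part in the Oit3 level was not tested. Gpr182 was 2.40-fold and 1.05-fold higher there and Maf 0.900-fold and 0.939-fold. Clec4g and Dnase1l3 were lower there, at 0 of 7 and 0 of 10 counts in section 1 and 0.231-fold and 0.208-fold in section 2, and Stab2 was 0.354-fold and 0.994-fold. With the low-Gnas cells left out, an alternative chosen after the data had been seen, the stage change was -0.52 for Oit3 (edgeR adjusted p = 0.850), 1.18 for Clec4g (edgeR adjusted p = 0.520) and 2.63 for Maf (edgeR adjusted p = 0.0511).

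Endothelial cells were picked by 6 panel markers, none of them a member: Pecam1, Cdh5, Kdr, Emcn, Cldn5 and Sox17, with at least 2 different markers and at least 3 counts of them per cell. The rule took 13, 328 and 11909 cells in the 3 sections (1.57%, 5.18% and 6.08%). At E15.5, 3263 cells met it exactly at 3 counts, and 10131 other cells held 2 counts of the markers. The endothelial-marker cells are therefore a range and not a sharp type. In E9.5 section 2 Gpr182 was the member furthest raised in them, and at E15.5 Stab2 was. The Gpr182 level in endothelial-marker cells against all others was 17.7 against 2.83 counts per 10,000 in E9.5 section 2 and 6.77 against 2.89 at E15.5, while the 13 cells of E9.5 section 1 held 0 counts of it among 1949. In E9.5 section 2, 20.7% of endothelial-marker cells held Gpr182, against 4.21% of the others.

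The fitted difference for Gpr182, with the section as a block, was a log2 change of 1.65 ± 0.55 with an edgeR adjusted p of 0.155, which did not pass. The call depended on the setting: it was 2.37 without the E15.5 section (edgeR adjusted p = 0.00709), 2.19 when 3 different markers were required (edgeR adjusted p = 0.0335), 1.68 with upper-quartile scaling (edgeR adjusted p = 0.0173) and 2.23 without the low-Gnas cells (edgeR adjusted p = 0.00316). Stab2 was 1.65-fold and 2.92-fold higher in endothelial-marker cells of E9.5 section 2 and of the E15.5 section, with 0 counts in those of E9.5 section 1, and its log2 change was 1.08 ± 0.46 (edgeR adjusted p = 0.247). For Oit3, Clec4g, Dnase1l3 and Maf the log2 change was 0.33, 0.05, -0.44 and -0.43, with edgeR adjusted p of 0.734, 0.993, 0.756 and 0.715. No member was called, and over all genes 8 of 290 (2.76%) were called higher and 0 lower.

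Within endothelial-marker cells, no member was called between the stages by edgeR. The log2 change to E15.5 was 2.83 for Clec4g (edgeR adjusted p = 0.264), 3.07 for Dnase1l3 (edgeR adjusted p = 0.225) and 3.40 for Maf (edgeR adjusted p = 0.346). It was 1.28 for Stab2, -1.92 for Oit3 and -0.81 for Gpr182, with edgeR adjusted p of 0.752, 0.740 and 0.896. Of 290 genes, 0.345% were called higher and as many lower. With 3 different markers required, 49 of 290 genes were called, 5 members among them. Stab2 (1.31), Clec4g (2.91), Dnase1l3 (2.71) and Maf (3.02) were higher and Oit3 (-2.30) lower, with edgeR adjusted p between 9.37e-08 and 0.0328. That rule takes no more cells of E9.5 section 1 than the 13 above, which held 2 counts of Oit3 and 0 of the other members. These calls therefore lean on E9.5 section 2, where Clec4g and Dnase1l3 lay under the mean blank code.

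At E9.5 the endothelial-marker cells held 37.8% of the Gpr182 counts in section 2 and none of its 27 counts in section 1. In the other cells of section 2 Gpr182 stood at 2.83 counts per 10,000, where the mean blank code stood at 1.51. Part of those counts is thus at the miscall level. Section 1 shows no direction, since its 13 endothelial-marker cells were too few to place Gpr182. Cells with several of its molecules carried endothelial markers: in E9.5 section 2, 42 cells held at least 2 counts of Gpr182 (median 371 total counts, against 123 in cells with none), and in them Cdh5, the cadherin of endothelial junctions, was 27.0-fold higher (95% Poisson interval 23.6 to 30.7), Adgrg6 20.6-fold, Pecam1 14.4-fold, the Notch ligand Dll4 14.1-fold and Kdr 12.1-fold. All 6 endothelial markers were at least 2-fold higher there and 0 of 8 mural markers were. In clusters formed without the members, Gpr182 peaked in the endothelial-like cluster led by Cdh5, Pecam1 and Kdr (173 cells), at 38.7 counts per 10,000 and 27.7 times the mean blank code of those cells, with 29.5% of cells positive. That cluster held 30.7% of all E9.5 counts of Gpr182.

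Oit3 was highest elsewhere at E9.5. It peaked in a cluster of 274 cells led by Higd1b, the hyaluronan receptor Lyve1 and Gkn3, at 67.1 counts per 10,000, 33.3 times the blank level, in 25.2% of the cells, and the other 5 members had 0 counts in that cluster. The cluster drew on both embryos, with 58 cells from section 1 and 216 from section 2, and its median depth was 41 counts. It met no class name. In the endothelial-like cluster above, Oit3 stood at 13.3 counts per 10,000 and was held by 16.8% of cells. The 60 cells of E9.5 section 2 with at least 2 counts of Oit3 had 8.07-fold more Edn1, 7.06-fold more Cdh5 and 5.68-fold more C1qa than cells with none, and 1.75-fold more of the mean blank code. In pooled level, 5 of 6 endothelial markers were at least 2-fold higher in them. Most of the 60 cells held no Cdh5, however: 13.3% held it, against 6.03% of cells with none of Oit3. Edn1 was held by 25% against 5.93%, and C1qa by 36.7% against 7.13%. In the 12 such cells of section 1, 1 of 6 endothelial markers was at least 2-fold higher, with a median ratio of 0.446, and Notch1 (3.58-fold) and Sfrp2 (2.92-fold) led.

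Maf at E9.5 lay in other cells again. Its highest clusters were led by the extracellular matrix genes Lox, Flrt2 and Bgn, at 9.84 counts per 10,000, and by Foxd1, Cxcl12 and Stra6, at 8.85, which is 7.0 and 7.43 times the blank level. In the endothelial-like cluster it stood at 0.553, below the mean blank code. The 54 cells of section 2 with at least 2 counts of Maf had 3.06-fold more Col1a2, a collagen chain, and 0.131-fold the Cdh5 of cells with none. Stab2, Clec4g and Dnase1l3 were nearer the blank codes in each E9.5 cluster. Stab2 reached 6.41 counts per 10,000 from 19 counts in the cluster led by Dll4 and Cldn5, 2.60 times the blank level. Dnase1l3 reached 2.27 counts per 10,000 in the cluster led by Dkk2 and Epas1, 2.54 times the blank level and 3.30-fold over the other cells, on 23 counts that were 25% of its E9.5 total. Its ratio to the blank level was higher, at 3.39, in the shallow cluster led by Car2 and Slc38a5, but on 5 counts. Clec4g was at most 2.04 times the blank level, on 3 counts in that same cluster.

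At E15.5 the position of Stab2 was concentrated. The erythroid genes of the panel, Car2 (carbonic anhydrase 2) and Bpgm (a red cell glycolytic enzyme), marked 407 of 2729 tiles of 100 by 100 position units. By eye nearly all of them lay in 1 block of the map, but whether they join was not measured. The 407 tiles, called the erythroid-gene area, held 21914 cells (11.6% of those in tiles) and 5.36% of the counts. Inside this area Stab2 stood at 21.4 counts per 10,000 and outside at 1.10, a ratio of 19.4 (95% Poisson interval 18.3 to 20.6), and 52.4% of its counts lay inside. Only 1 of the 296 genes had a higher ratio, and the 296 include Car2 and Bpgm, by which the area was drawn. Relative to the mean blank code, Stab2 was 10.1-fold inside and 0.708-fold outside.

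Gpr182 and Oit3 were also higher in the area. Gpr182 stood at 10.4 counts per 10,000 inside and 2.87 outside, a ratio of 3.62 (3.40 to 3.86). Oit3 stood at 6.0 and 1.97, a ratio of 3.04 (2.80 to 3.31). Relative to the mean blank code inside, these were 4.89-fold and 2.82-fold. The blank codes themselves had a mean ratio of 1.36, from 0.369 to 2.84, and 4 of 19 reached 2. Both ratios were above that of each code, but the interval for Oit3 includes the highest of them, and 1 code lay above Oit3 in level inside the area.

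Clec4g and Dnase1l3 did not set the area apart, and Maf was lower in it. Clec4g stood at 2.68 inside and 2.54 outside, a ratio of 1.05 (0.936 to 1.19), and Dnase1l3 at 2.95 and 2.77, a ratio of 1.06 (0.949 to 1.19). Both ratios lay below that of the mean blank code. Maf stood at 8.80 inside and 23.4 outside, a ratio of 0.376 (0.353 to 0.401), though inside it was still 4.14 times the mean blank code.

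Over members, 3 of 6 were at least 2-fold higher in the area, with a median ratio of 2.05; over all 296 genes 61 (20.6%) were, with a median of 0.746. Of the 5 other sinusoidal genes, Lyve1 (2.63) and Gata4 (2.40) passed 2-fold, and Ehd3 (1.78), Cd36 (1.44) and Mrc1 (0.823) did not. None of the 11 hepatocyte markers listed was on the panel, so the area is named by its genes and not as liver. With 1 section there was no test. Drawn from Bpgm alone the area took 30774 cells and the ratio was 3.89 for Stab2, 1.37 for Oit3 and 1.70 for Gpr182, so the outline rested on Car2.

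**Figure D2:**
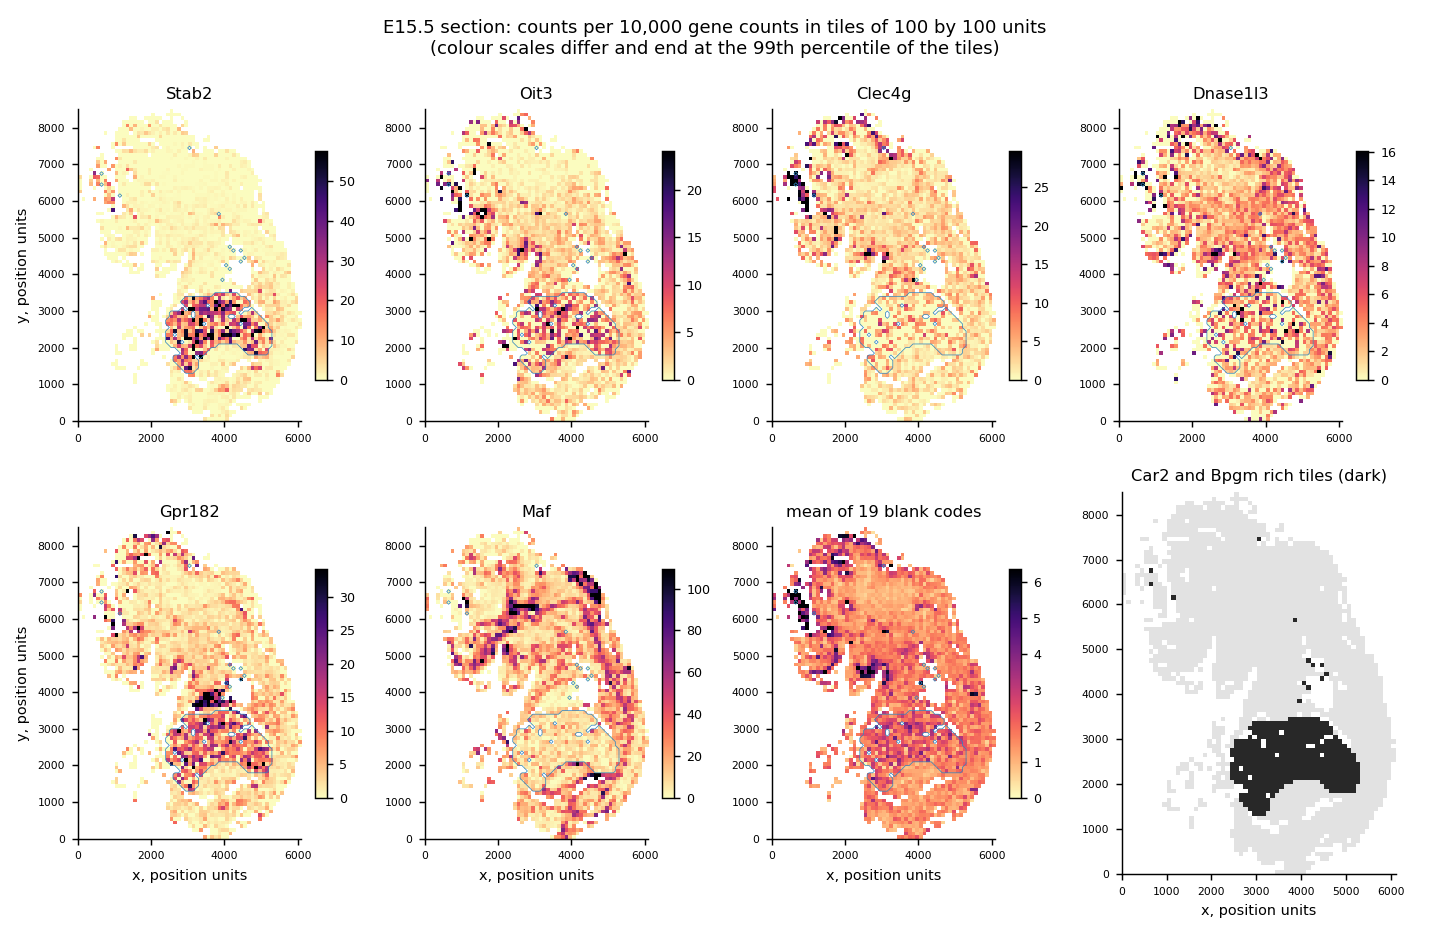
Tiles of 100 by 100 position units across the E15.5 section, coloured by counts per 10,000 gene counts of each gene and of the mean blank code, with the outline of the tiles rich in Car2 and Bpgm, which the last panel shows dark. Stab2 is densest within the outline, Gpr182 also fills a patch just above it, Maf lies along bands outside it, and Clec4g shares its dark edge tiles at the upper left with the blank codes.

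Depth differed across the outline, with a median of 41 counts per cell inside and 95 outside, so shares of cells were also taken after thinning each cell to 20 counts, which left out 3749 cells inside and 11487 outside. Stab2 was held by 5.61% of cells inside and 1.16% outside, and by 3.08% and 0.236% after thinning. For Gpr182 the shares were 4.77% and 3.18%, and 2.20% and 0.672% after thinning. For Oit3 they were 2.83% and 2.22%, then 1.26% and 0.467%. The order for these 3 genes was thus the same at equal depth. For Dnase1l3 the order was lost, with 1.47% inside and 3.15% outside, then 0.666% and 0.655%. Clec4g went the other way, with 1.36% inside and 2.90% outside, then 0.479% and 0.675%, and Maf had 3.89% and 16.4%, then 1.72% and 4.29%.

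**Figure D3:**
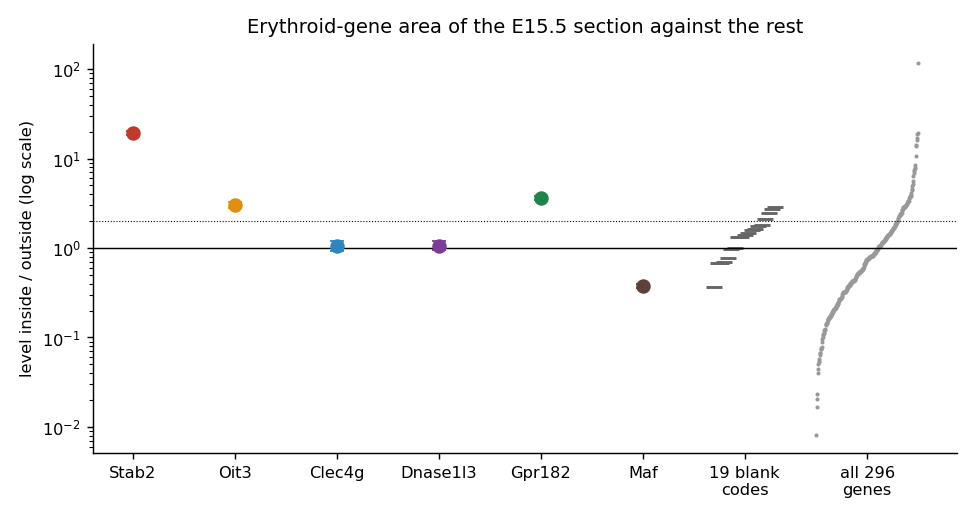
Level inside over level outside the erythroid-gene area of the E15.5 section (log scale, dotted line at 2-fold) for each gene with its 95% Poisson interval, beside the 19 blank codes and all 296 genes. Stab2 at 19.4, Gpr182 at 3.62 and Oit3 at 3.04 lie above the ratios of all blank codes, of which the highest falls within the interval of Oit3, Clec4g and Dnase1l3 lie near 1, and Maf lies at 0.376.

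In endothelial-marker cells the contrast between inside and outside was larger than over all cells for Stab2, Gpr182 and Oit3, and Maf and Dnase1l3 were higher inside as well. The area held 211 such cells (median 77 counts) and the rest of the section 11528 (median 157). Stab2 stood at 217 counts per 10,000 in the first and 3.35 in the second, a ratio of 64.8 (57.3 to 73.2), and was held by 49.8% and 4.31% of the cells. Gpr182 stood at 58.2 and 6.31, a ratio of 9.22 (7.55 to 11.2), and was held by 38.9% and 9.74%. Oit3 stood at 27.6 and 2.21, a ratio of 12.5 (9.24 to 16.6), and was held by 21.3% and 3.73%. Each of these intervals lies above the ratio of the same gene over all cells.

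Maf was 1.77-fold higher in the endothelial-marker cells of the area (1.39 to 2.22), at 38.8 against 21.9 counts per 10,000, whereas over all cells it was lower there. Dnase1l3 was 2.51-fold higher (1.33 to 4.33) on 13 counts, and Clec4g 0.668-fold (0.181 to 1.72) on 4 counts, which leaves its direction undetermined at this depth. The mean blank code stood at 2.07 and 1.71 in these cells. Most Stab2 molecules of the area lay outside the marker rule, however: 425 of its 2388 counts were in endothelial-marker cells and 1244 in the 15145 cells that met none of 7 marker rules, whose median depth was 35 counts and where Stab2 stood at 18.9 counts per 10,000.

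Macrophage-marker cells were read in the same way, since Mrc1 marks both macrophages and sinusoids. The area held 102 of them, of which 75 carried Mrc1 and 10 also met the endothelial rule, and the rest of the section 3323. Maf stood at 86.5 and 84.9 counts per 10,000, a ratio of 1.02 (0.811 to 1.26). Stab2 stood at 79.3 and 1.62 in them and Gpr182 at 12.4 and 3.38, so both were raised in macrophage-marker cells of the area as well. Oit3 stood at 3.09 and 1.55 on 3 counts in the area.

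**Figure D4:**
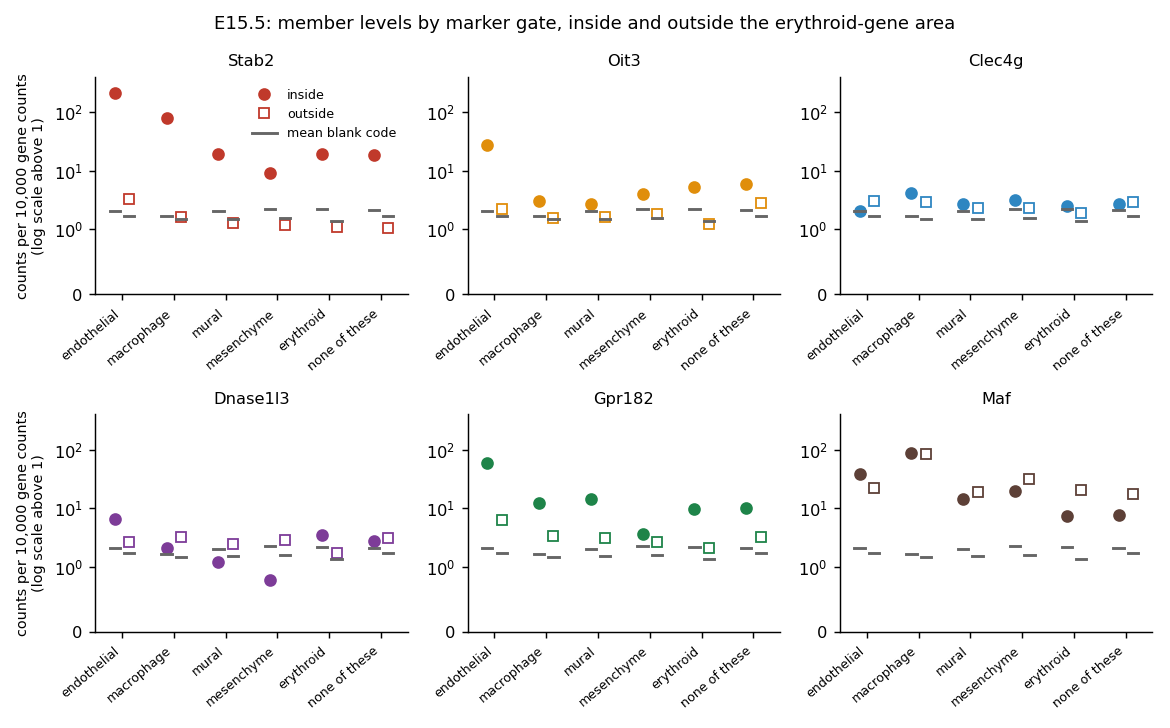
Counts per 10,000 gene counts (log scale above 1) of each gene in cells that meet each marker rule, inside (filled circles) and outside (open squares) the erythroid-gene area at E15.5, with the mean blank code as grey bars. Stab2, Oit3 and Gpr182 are highest in endothelial-marker cells inside, at 217, 27.6 and 58.2, and Maf is highest in macrophage-marker cells on both sides.

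Cells of the area with several Stab2 molecules carried an endothelial and sinusoidal set of genes. The 367 cells with at least 2 counts (median 56 total counts, against 40 in the 20684 cells with none) had 16.1-fold more Mrc1 (14.2 to 18.2), the mannose receptor, which 45% of them held. Lyve1 was 8.91-fold higher, Cldn5 8.31-fold, Kdr 7.84-fold, Cdh5 7.34-fold and Pecam1 6.04-fold, while Emcn was 1.22-fold (0.679 to 2.03), and 5 of the 6 endothelial markers passed 2-fold. The sinusoidal genes followed, with Ehd3 at 4.53-fold, Gata4 at 3.51-fold and Cd36 at 2.92-fold. Hence all 5 of the other sinusoidal genes were at least 2-fold higher beside Stab2. Of the members, Gpr182 was 8.05-fold higher (6.77 to 9.53), Oit3 7.58-fold (6.0 to 9.49) and Maf 6.16-fold (5.02 to 7.5). Dnase1l3 was 1.99-fold (1.07 to 3.39) and Clec4g 1.08-fold (0.430 to 2.26).

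The macrophage complement gene C1qb was 0.937-fold in these cells and C1qa 0.374-fold, Car2 0.665-fold and the mean blank code 1.2-fold. Of the 6 lymphatic markers 3 were at least 2-fold higher, namely Lyve1, Nrp2 (3.77-fold) and Vegfc (2.21-fold), while the lymphatic regulator Prox1 was 0.506-fold. Clusters drawn without the members placed 58.1% of all cells with at least 2 Stab2 counts in the cluster led by Car2, Rgcc and Odc1, which held 10.1% of cells, and 16.9% in the main endothelial-like cluster. Most cells rich in Stab2 were thus grouped with their erythroid surroundings. Outside the area, 132 cells held at least 2 counts of Stab2, and they had 14.4-fold more Aplnr, 10.9-fold more Pecam1 and 10.4-fold more Ptprb than cells with none.

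Gpr182 had a second site in the E15.5 section. After the map had been seen, tiles outside the erythroid-gene area were taken where Gata4 and Tbx20, transcription factor genes known from the heart, were at least 3-fold above the section. In these 172 tiles (10731 cells) Gpr182 stood at 5.61 counts per 10,000 against 2.67 in the rest, a ratio of 2.10 (1.94 to 2.27), and in their 896 endothelial-marker cells at 15.54 against 5.56, held by 18.6% of them. Oit3 was 1.42-fold (1.27 to 1.58), Stab2 0.866-fold (0.718 to 1.04), Maf 0.635-fold and the mean blank code 1.03-fold. Of all 296 genes, 7.09% were at least 2-fold higher there. Gpr182 was the 1 member at least 2-fold higher at both sites. That is a description only, since the tiles were chosen after its map had been seen.

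Cells with at least 2 counts of Gpr182 had higher levels of Stab2 and endothelial markers both inside and outside the erythroid-gene area, though few of those outside held Stab2. The 95 inside had 16.6-fold more Stab2, 12.1-fold more Ptprb, 10.6-fold more Mrc1 and 8.66-fold more Cdh5 than cells there without Gpr182. The 282 in all the rest of the section had 9.40-fold more Aplnr, 8.76-fold more Stab2, 7.16-fold more Pecam1 and 6.07-fold more Cdh5. Stab2 was held by 52.6% of the 95 cells inside, against 4.77% of cells there without Gpr182, and by 7.80% of the 282 outside, against 1.09%. At both places 5 of 6 endothelial markers were at least 2-fold higher, and of the 5 other sinusoidal genes 5 were inside and 3 outside. Of all 384 such cells, 35.7% were in the main endothelial-like cluster and 20.6% in the Car2-led cluster.

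Oit3 at E15.5 was found in different company at the 2 sites, inside and outside the area. Its 41 cells with at least 2 counts in the area had 12.7-fold more Stab2, 9.31-fold more Mrc1 and 4.99-fold more Ehd3, and 4 of 6 endothelial markers and all 5 other sinusoidal genes, Gata4 included, were at least 2-fold higher in them. Outside, 0 of 6 endothelial markers and 1 of 5 sinusoidal genes were, in 145 cells. Those cells had 9.68-fold more Gata4, 3.92-fold more Gata5 and 3.75-fold more Mecom, with the mean blank code at 1.57-fold. Cells there with at least 2 counts of a blank code reached 7.31-fold, 5.55-fold and 2.84-fold for these genes, so that Gata5 fell within that range. Next in rank were Dll4 (3.57-fold, in 16.6% against 2.65% of cells) and Gja4 (3.20-fold, in 13.8% against 5.15%). Both are leading genes of the main endothelial-like cluster, so these cells were not free of vessel genes. The highest cluster was a small one of 112 cells led by Zic1, Pdzk1ip1 and C1qa, at 37.4 counts per 10,000 and 9.90 times the blank level, none of it in the area.

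Maf at E15.5 was highest in macrophage-like cells. The macrophage-like cluster (2108 cells, led by Mrc1, F13a1 and C1qb) held it at 138 counts per 10,000, in 63.1% of cells and in 22.3% after thinning, which is 90.7 times the blank level, and yet that cluster carried 7.61% of all Maf counts. A cluster led by Prrx1, Prrx2 and Foxf1 held it at 46.8 counts per 10,000 in 33.4% of 7172 cells. The 9835 cells with at least 2 counts of Maf (median 173 total counts against 75) had 11.4-fold more Mrc1, 6.96-fold more F13a1, 6.14-fold more C1qb and 5.32-fold more Lyve1; cells with at least 2 counts of a blank code reached 8.63-fold, 4.03-fold and 7.23-fold for the first 3, so that C1qb fell within that range. In the erythroid-gene area the 93 such cells had 15.7-fold more Sparcl1, 11-fold more Mrc1 and 9.67-fold more C1qb.

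Clec4g and Dnase1l3 at E15.5 had weak and different company. The 152 cells with at least 2 counts of Clec4g had 6.94-fold more Fabp7, a radial glial gene, 4.25-fold more Cldn5, 3.71-fold more Aplnr and 3.29-fold more Mfsd2a, a transporter of brain endothelium. For cells with at least 2 counts of a blank code these reached 1.76-fold, 5.48-fold, 3.07-fold and 1.78-fold, so that Cldn5 fell within the blank range and the other 3 above it. Of the 152 cells, 15.1% were in the cluster led by Htra1 and Bgn, which held 8.87% of all cells, 8.55% in the main endothelial-like cluster, 7.24% in the endothelial-like cluster led by Cldn5 and Slco1c1, which held 0.914% of all cells, and 7.89% in the Fabp7-led cluster, which held 1.39%. The 186 cells with at least 2 counts of Dnase1l3 had 2.56-fold more Htra1, 2.02-fold more Col5a2 and 1.94-fold more Col1a2. The highest cluster levels of both genes were in clusters of shallow cells led by Scgb3a1, at 19.8 counts per 10,000 for Clec4g and 8.02 for Dnase1l3, where the mean blank code was also high, at 4.15 and 3.24.

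In single cells, Stab2, Gpr182 and Oit3 were found together more often than their shares alone would give. At E15.5, 412 cells held both Stab2 and Gpr182 against 107 expected, a ratio of 3.83, which was 3.64 within bins of total counts. Stab2 and Oit3 met in 223 cells, a ratio of 3.04 (2.89 within bins), and Oit3 and Gpr182 in 327, a ratio of 2.21 (2.02 within bins). These were the 3 of 15 pairs at or above 2. A blank code with Stab2 gave 0.978 to 1.89, with Oit3 1.23 to 2.35 and with Gpr182 1.29 to 1.84, so the pair of Oit3 and Gpr182 lay inside the blank range of Oit3. With at least 2 counts of each gene, 50 cells held Stab2 and Gpr182 against 0.986 expected.

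Inside the erythroid-gene area 7 of 15 pairs reached 2 within bins of total counts, and outside 1 did. Stab2 with Gpr182 was 3.43 inside and 2.45 outside, Stab2 with Oit3 3.17 and 1.84, and Oit3 with Gpr182 2.80 and 1.67. Maf joined them in the area: it was 2.73 with Stab2, 2.30 with Oit3 and 2.27 with Gpr182 there, against 1.05, 0.956 and 1.07 outside. Blank codes paired with Maf in the area gave 0.586 to 1.62, with Oit3 0.736 to 1.44, with Gpr182 0.531 to 2.14 and with Stab2 0.307 to 2.88. The pair of Stab2 and Maf thus lay inside the blank range of Stab2, and that of Gpr182 and Maf lay little above the range of Gpr182. Oit3 and Dnase1l3 met in 24 cells of the area, a ratio of 2.14, and no pair with Clec4g reached 2.

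No cell held all 5 scavenger genes. In the area 378 cells held 2 of the 5, 60 held 3 and 7 held 4, of 21914, and outside 1472, 86 and 4 did, of 167436. The 2050 cells of the section with at least 2 of the genes were deeper than the rest (median 141.5 against 83 counts), and the genes most raised in them were Aplnr (3.57-fold), Lyve1 (3.51-fold), Pecam1 (2.93-fold), Ptprb (2.61-fold), Cdh5 (2.53-fold), Kdr (2.46-fold), Cldn5 (2.39-fold), Clec14a (2.13-fold), Notch4 (2.07-fold) and Scn7a (1.99-fold), against 1.14-fold for the mean blank code. Restricted to the area, the 445 such cells were led by Pcdh17 (9.11-fold), Mrc1 (8.78-fold) and Lyve1 (6.83-fold). At E9.5 the counts were small: in section 2, Stab2 and Gpr182 met in 14 cells, a ratio of 1.89, and Oit3 and Gpr182 in 48, a ratio of 1.84. Stab2 and Maf met there in 16 cells, a ratio of 2.07, and Dnase1l3 and Maf in 9, a ratio of 2.09. Blank codes in that section reached 1.48 with Stab2 (3 codes), 2.84 with Oit3, 2.98 with Gpr182 and 2.15 with Maf.

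**Figure D5:**
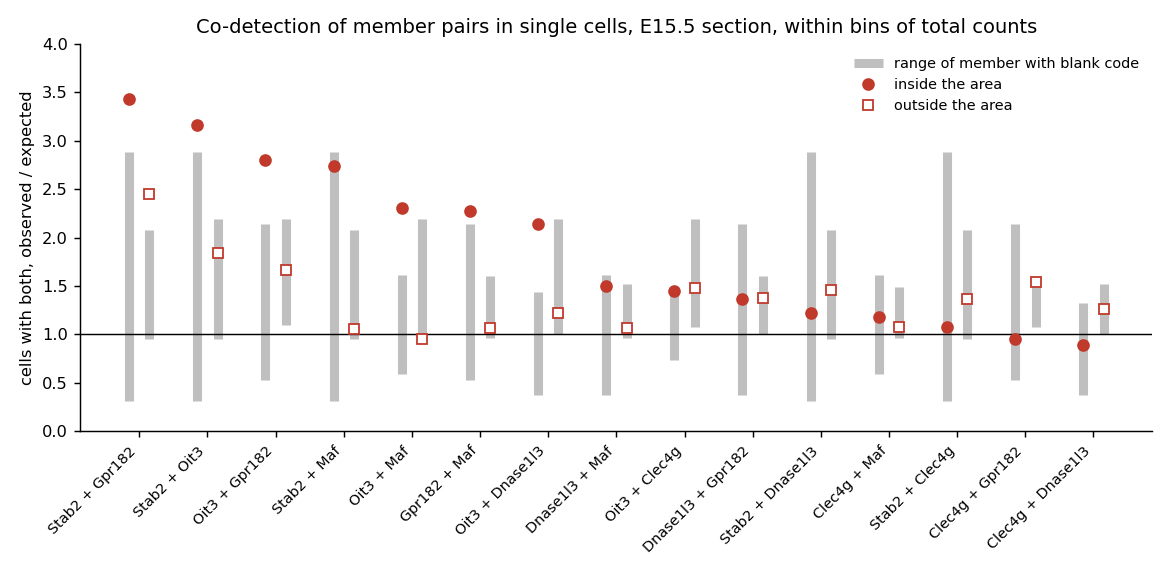
Cells holding both genes of a pair at E15.5, observed over expected within bins of total counts, inside (filled circles) and outside (open squares) the erythroid-gene area, with grey bars for the range when a gene of the pair is set against blank codes. The pairs among Stab2, Gpr182, Oit3 and Maf are all above 2 inside, from 2.27 to 3.43, and among them only Stab2 with Gpr182 is above 2 outside, at 2.45.

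Cells holding a gene also lay near one another. At E15.5, of the 20 nearest neighbours of a cell with Stab2, 4.81% held it too, against 1.65% of all cells, a ratio of 2.92. The ratio was 2.12 for Maf, 1.84 for Oit3, 1.6 for Gpr182, 1.40 for Clec4g and 1.29 for Dnase1l3, and the blank codes gave 1.02 to 2.58. Stab2 lay above that range at 1 count or more. With at least 2 counts needed it did not: the ratio was then 20.5 for Oit3 and 10.6 for Stab2, and 11 blank codes gave 0 to 68.6. At E9.5 in section 2, on 1 count or more, it was 2.12 for both Clec4g and Dnase1l3, 2.10 for Oit3, 2.04 for Maf, 1.74 for Gpr182 and 1.5 for Stab2, all within 0.825 to 3.64 for the blank codes. The richest 5% of E15.5 tiles (137) held 40.6% of Stab2 counts and 31.0% of Maf counts, against 17.5% to 33.9% for blank codes, and 20.1% to 24.4% for each of the other 4 genes. Over all 296 genes the share ran from 14.3% to 85.0%, with a median of 27.5%. Those 4 genes were thus less concentrated than the median gene.

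Across the 2729 tiles of the E15.5 section, which share 1 section and differ in depth, the genes most like Stab2 were Car2, Rgcc and Odc1, with Pearson correlations of 0.608, 0.591 and 0.587 on the log2 scale of counts per 10,000 plus 1. For Gpr182 they were Stab2 (0.384), Car2 (0.367) and Rgcc (0.344), and for Maf the stromal genes Cd248 (0.397), Col1a2 (0.368) and Lox (0.366). For Oit3 they were the cell cycle genes Prc1 (0.334) and Cdc20 (0.324), then Cfi (0.319). Clec4g was most like Rhoc (0.368), Myo10 (0.313) and Vwf (0.30), and Dnase1l3 like Rhoc (0.152), Clec4g (0.137) and C1qa (0.127). The highest correlation with a blank code was 0.165, 0.152, 0.160, 0.181, 0.198 and 0.118 for Stab2, Gpr182, Maf, Oit3, Clec4g and Dnase1l3, so that Dnase1l3 was hardly closer to a gene than to a blank code.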

How the data were processed

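Each section was deposited as 2 tables, 1 of counts per segmented cell and 1 of cell positions and volumes. The counts are whole numbers of decoded molecules, per the file headers and the labels' protocols, made on the Vizgen MERSCOPE platform; the sources used here do not describe segmentation or decoding. Cell volume is deposited as a signal per cell and was used only as a description. Scanpy and Seurat appear, without a version, in the submitters' processing notes.

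The 6 genes and all lists were chosen with earlier results of these data known. Cells with at least 10 gene counts were kept, and blank codes entered no total or test. Counts were summed per section or per cell group and section and tested with edgeR 4.0.16 (quasi-likelihood, TMM, genes with at least 30 counts, Benjamini-Hochberg over all genes tested, called at 0.05) in R 4.3.3; DESeq2 1.42.0 was an alternative. The stage fits have 1 residual degree of freedom and take their spread from the E9.5 embryos, pooled over genes, so each stage p assumes that the E15.5 section varies like them, and imaging run cannot be told apart from stage. In 20 simulated draws the stage fit recovered 15.4% of 4-fold and 36.4% of 8-fold changes, the fit of endothelial-marker cells against others 95.8% and 100%, and the stage fit within endothelial-marker cells 8.6% and 25.6%. With 3 sections the smallest exact permutation p is 0.333.

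Clusters were drawn without the 6 genes (30 principal components, 15 neighbours, Leiden resolution 1; python 3.11.15, scikit-learn 1.9.0, igraph 0.11.9), for the E9.5 sections together and E15.5 alone, and named only from listed markers. No doublet caller was run, since segmentation sets the cells. Named genes are the members, the 3 most alike over tiles, the 10 most raised in cells with 2 scavenger genes, the listed markers and cluster leaders; genes ranked in cells with at least 2 counts of a member (on at least 30 counts in them) and the tiles of Gata4 and Tbx20 were added after values had been seen. Those cells were chosen by a member's own counts, so the other genes' values there are descriptions. Promoters came from RefSeq.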

Additional observations from a re-analysis of the deposited data

Results flagged for a closer look

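The level of Clec4g in endothelial-marker cells over that in all other cells was 1.2 at E15.5 and 0.762 in E9.5 section 2, the higher of the E9.5 sections, and 0 in E9.5 section 1. The mean blank code lay on the same sides, at 1.09 at E15.5 and 0.842 in E9.5 section 2. It was picked out because the stages lay on opposite sides of 1, but the difference was not tested. E9.5 section 1 shows no direction, with 13 endothelial-marker cells and 7 counts of Clec4g in all, and E9.5 section 2 rests on 4 counts in endothelial-marker cells.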

How the results depend on the processing

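Of 177 alternative values of the members' log2 changes, 155 kept direction and side of the threshold, 4 lost the call, 12 gained one and 6 changed sign; of 53 area ratios 31 stayed within their interval, 19 moved and 3 changed sign; of 50 counts 30 stayed within 1.5 times. The cause of these shifts was not tested. Genes called between stages numbered 44, and 92 with DESeq2, 27 with upper-quartile factors and 22 without the low-Gnas cells. Endothelial-marker against other cells gave 8, and 13 with DESeq2, 20 with upper-quartile factors, 2 after subtraction of the mean blank code, 15 with 3 markers, 21 without low-Gnas cells, 11 to 20 with a section left out and, by edgeR without the section block, 0 (10 genes at an unadjusted p under 0.05). Stage within endothelial-marker cells gave 2, and 0 with upper-quartile factors (21 at an unadjusted p under 0.05 in edgeR), 5 after blank subtraction, 49 with 3 markers and 10 without low-Gnas cells. Against the highest blank code in place of the mean, members above numbered 1 in E9.5 section 1 and 1 at E15.5, where 176 and 216 of the 296 genes were above it. The area count of 3 was 1 when drawn from Bpgm alone, the pair count of 3 was 7 inside and 1 outside the area, and the neighbour ratio of Stab2 of 2.92 was 10.6 with at least 2 counts, where 11 blank codes gave 0 to 68.6. Sign changes were: Stab2 between stages, -0.0067 to 0.50 with a section left out and -0.0082 without low-Gnas cells; in endothelial-marker cells Oit3 at -0.044 (without E9.5 section 2) to 0.74 with a section left out and -0.11 without the block, Clec4g at -0.20 (without E15.5) to 0.093 with a section left out and Maf at 0.0087 without the block; in the area Clec4g at 0.974 with tiles of 200 units and 0.565 after blank subtraction, and Dnase1l3 at 0.678 after it. Blank subtraction left no Stab2 ratio, since its outside level is at or below blank, and no stage value for Clec4g or Dnase1l3. Stage values with an E9.5 section left out carry no test. No paired analysis of the stages was possible because they are different embryos and E15.5 has 1 section. Background limits Clec4g and Dnase1l3 at E9.5, where both lie under the mean blank code.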
